A study of Homo sapiens with 50 samples.

Results

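The H1299shRAD9 cells of the DBN group were set against unirradiated control (CTL) cells of the same line, with 5 arrays in each group out of 50 in the series. H1299 is a human non-small cell lung carcinoma line, and H1299shRAD9 is its derivative carrying a retroviral vector (pSUPER.retro.puro) that expresses a short hairpin RNA against RAD9 and was selected with puromycin. The study describes a pair of separate stable transfectants treated as equivalent, and which of them each array came from is not given in the sources used here. Both groups carry the hairpin. CTL cells were sham irradiated (0 Gy). DBN stands for direct bystander negative, that is, cells hit by 1 Gy of 4He ions in dishes whose neighbouring, unirradiated cells showed no micronucleus response, and RNA was taken 4 h later. The dishes were sorted by micronucleus scoring, not by the arrays. The array members were chosen by their labels, and CTL and DBN arrays with the same replicate number were treated as a pair. Other H1299shRAD9 groups are used only for contrast: BN (bystander cells of the nonresponding dishes), DBP (directly hit cells of dishes whose bystanders did respond) and BP (the responding bystanders), with 5 arrays each. Parental H1299 CTL and DBN arrays (5 each) served for the test between cell lines.

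RAD9 is a subunit of the RAD9-RAD1-HUS1 clamp, which is loaded at damaged DNA and helps ATR to activate CHK1. CHK1 and ATM signalling hold back CDK1-cyclin B, so that cells with damaged DNA stop before mitosis. Many genes needed in mitosis are transcribed late in the cell cycle, and their promoters often hold a CHR element (core TTTGAA) and CCAAT boxes, through which the DREAM and MuvB complexes and NF-Y act.

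Each array gave log2 intensities relative to its own median, called levels here; a difference is DBN minus CTL on that log2 scale, averaged over the 5 pairs. A feature (array probe) was called when its paired limma p was under 0.006 at a Benjamini-Hochberg false discovery rate under 10%. Of 12169 features tested, 569 were called (4.68%), of which 375 were higher in DBN (3.08%) and 194 lower (1.59%). Of the 569, 538 changed the same way in all 5 pairs, as did 15.9% of all tested features. The median difference was −0.04 over all tested features. At least 2-fold changes were seen for 28 rising and 16 falling features, with median differences of 0.69 among those rising and −0.59 among those falling. There were 66 calls when the pairing was ignored, and 127, 0, 0, 23 and 672 calls when replicate 1, 2, 3, 4 or 5 was left out.

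**Figure D1:**
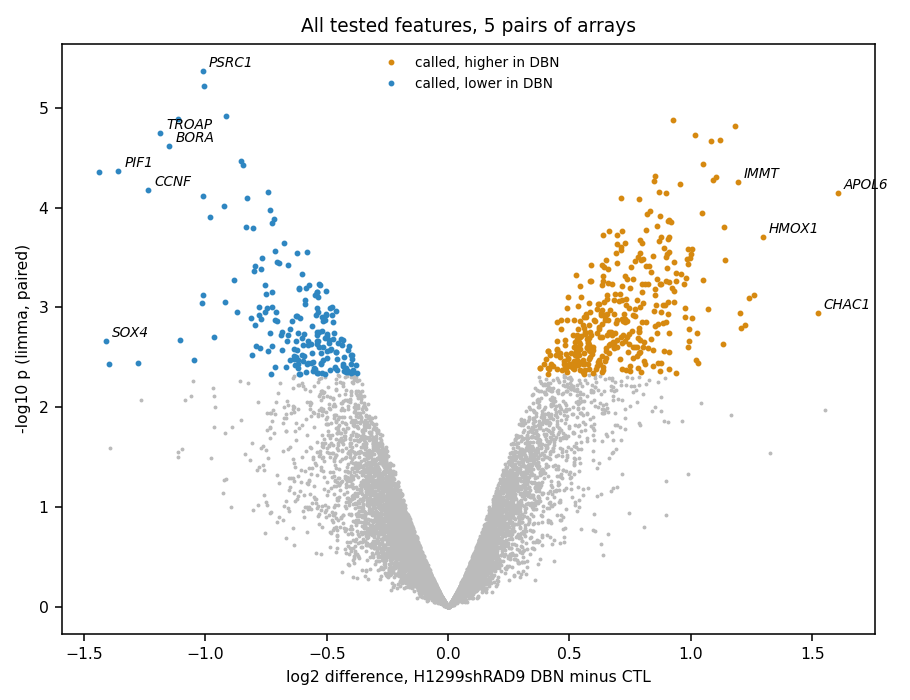
Each point is 1 of 12169 tested features. The x axis is the log2 difference between DBN and CTL and the y axis −log10 of the paired limma p. The 375 features called higher (orange) and 194 called lower (blue) are coloured, with PIF1, CCNF, TROAP, BORA and PSRC1 far to the left and APOL6, CHAC1 and HMOX1 far to the right.

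Arrays of both groups had 58.5% to 65.7% of probes well above background. RAD9A, the gene targeted by the hairpin, had levels of 3.32, 3.15, 3.24, 2.85 and 3.16 in CTL and 3.75, 3.23, 3.06, 3.23 and 3.14 in DBN, against 3.44, 3.48, 3.60, 3.25 and 3.46 in parental CTL. The parental values lay above the H1299shRAD9 CTL values, except that 3.25 lay below 3.32. DBN differed from CTL by 0.14 without the filter on variation (limma adjusted p = 0.648). KRT8, KRT18, KRT19 and KRT7 were above background on all 10 arrays, while EPCAM and CDH1 were below it on all. VIM, CDH2 and ZEB1 were above background on all 10, and FN1 on none. Of 4 lung lineage markers, the factor NKX2-1 and the surfactant gene SFTPB were below background on all 10, NAPSA was above it on 5 and the surfactant gene SFTPC on all 10. Of 5 leukocyte markers 2 were above background on all 10 arrays, and the list had a summed linear level of 2.60 to 4.43 times the array median in CTL and 1.97 to 3.30 in DBN. CD14 among them was called, at −0.58 ± 0.13 (SE), and stood at 0.23 with the 5′ minus 3′ index defined below as a covariate. The part of these markers in the other results was not tested.

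Slides and RNA-related measures were not balanced. CTL arrays lay on slides 2, 2, 4, 4 and 5 and DBN arrays on slides 2, 3, 10, 10 and 6, so that only pair 1 shared a slide. A 5′ minus 3′ index was taken per array as the median, over 3434 genes with several features, of the most 5′ feature minus the most 3′ feature. It was −0.07, −0.12, −0.17, −0.13 and −0.05 in CTL and −0.01, −0.03, −0.03, 0.00 and 0.11 in DBN. It was higher in DBN in all 5 pairs, by 0.116 on average, with an exact paired permutation p = 0.0625, the smallest that 5 pairs allow. BN arrays had index values from −0.02 to 0.11, which overlap those of DBN. The part of the index and of the slides in the differences from CTL was not tested, except where values are given below. A fit against CTL with the index as a covariate gives the difference between arrays of equal index. No pair had equal index (differences of 0.06 to 0.16), so those values are extrapolated and index and group are not separated.

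The clearest falls were in genes of mitosis. Over 6 lists of mitotic genes, 118 genes were on the array, 73 were tested, 28 were called lower and none was called higher. Their median difference was −0.39, against −0.04 over all 8806 tested genes, of which 4.45% were called, 1.79% lower and 2.66% higher. The median of the mitotic genes was −0.40, −0.39, −0.21, −0.47 and −0.46 in pairs 1 to 5, and the first of these pairs shared a slide. With the 5′ minus 3′ index as a covariate the median was −0.39, although none of the genes was still called. With scan day as a block it was −0.40, but only pair 1 was scanned on 1 day, so this is the value of pair 1. With slide as a fixed block it was −0.41. That fit has no replicate block and rests on DBN array 1 and CTL arrays 1 and 2, which shared a slide. In such bulk samples, fewer cells in a stage of the cycle and less RNA per cell cannot be told apart.

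**Figure D2:**
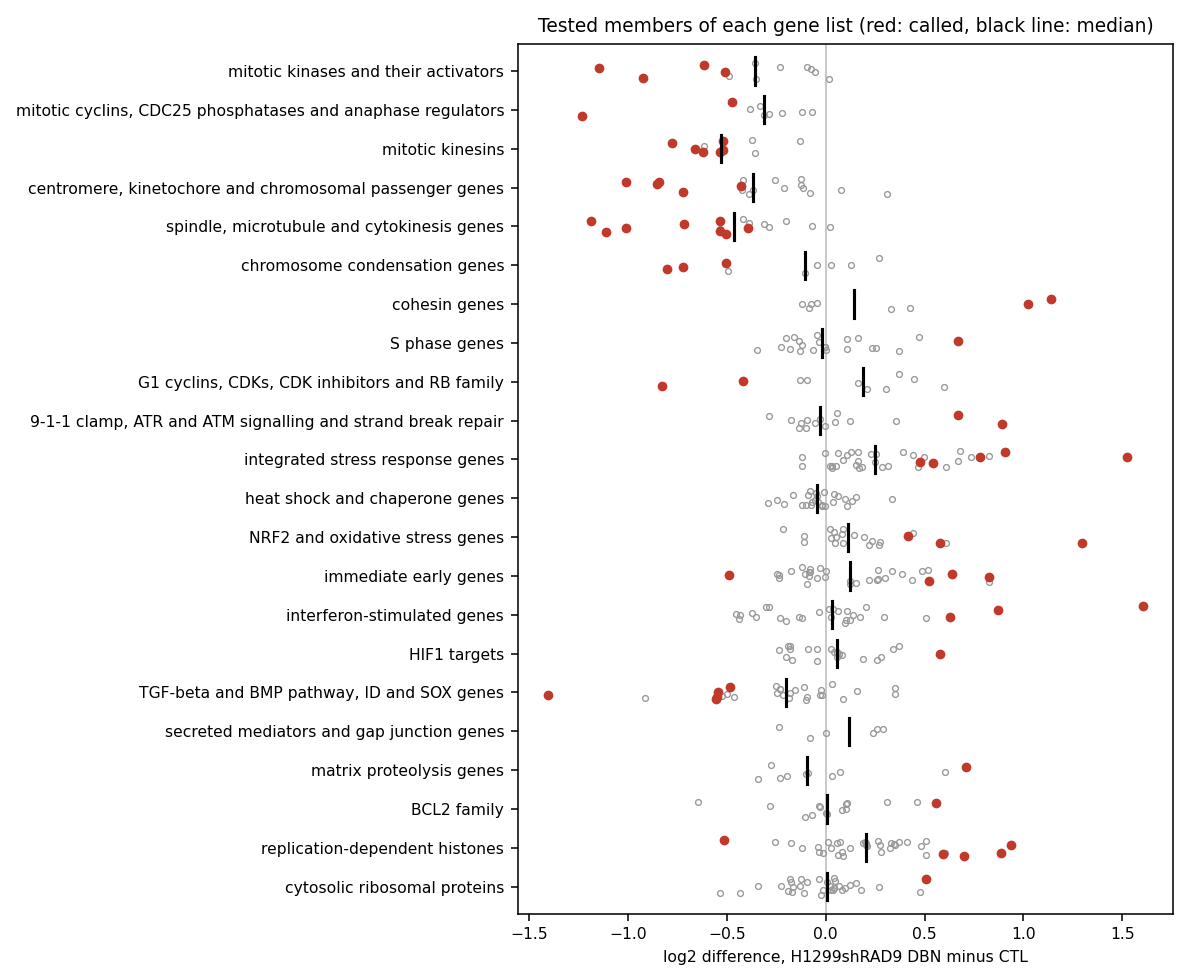
Each circle is the log2 difference (x axis) of 1 tested gene in DBN against CTL, grouped by gene list (y axis), with called genes in red and the list median as a black line. All called genes of the 6 uppermost lists lie to the left of 0, and those of the integrated stress response list lie to the right.

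Promoters of 5 of the falling genes are shown because they hold the CHR and CCAAT letters named above. TTTGAA, the CHR core, was found on either strand within 250 bases before to 50 bases after the annotated start of 15 of 22 called mitotic genes with a RefSeq promoter window (68.2%), against 10.2% of tested genes and 15.4% of all 27305 windows. CCAAT was found in 17 of 22 (77.3%), against 35.8% of tested genes and 35.7% of all windows. A match describes these letters in these windows only. The sequences below are the 150 bases before the start (RefSeq, GRCh38.p14, 5′ to 3′ on the gene's strand), with TTTGAA in capitals, and likewise CCAAT boxes on either strand (ATTGG where the box is on the reverse strand). In CDCA8 the TTTGAA and the last ATTGG overlap.
PIF1, chr15:64825648-64825797, minus strand: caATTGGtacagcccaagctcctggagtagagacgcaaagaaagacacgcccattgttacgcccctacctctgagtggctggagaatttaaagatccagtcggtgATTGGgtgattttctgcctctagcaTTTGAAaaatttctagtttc
CCNF, chr16:2429297-2429446, plus strand: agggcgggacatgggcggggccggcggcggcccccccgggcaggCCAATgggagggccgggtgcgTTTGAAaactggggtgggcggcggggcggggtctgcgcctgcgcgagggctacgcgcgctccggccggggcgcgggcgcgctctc
CENPA, chr2:26785906-26786055, plus strand: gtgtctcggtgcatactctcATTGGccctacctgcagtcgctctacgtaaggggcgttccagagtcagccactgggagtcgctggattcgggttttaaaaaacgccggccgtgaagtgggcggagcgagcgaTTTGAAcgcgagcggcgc
CDCA8, chr1:37692366-37692515, plus strand: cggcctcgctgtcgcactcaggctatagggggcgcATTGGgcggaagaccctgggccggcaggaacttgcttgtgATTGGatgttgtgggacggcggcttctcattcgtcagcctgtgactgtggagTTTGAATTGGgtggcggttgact
PLK1, chr16:23678739-23678888, plus strand: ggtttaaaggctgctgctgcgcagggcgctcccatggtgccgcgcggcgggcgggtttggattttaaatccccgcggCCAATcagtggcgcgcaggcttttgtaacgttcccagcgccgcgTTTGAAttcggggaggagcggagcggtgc
The TTTGAA begins 20 bases before the start in PIF1, 85 in CCNF, 18 in CENPA, 23 in CDCA8 and 29 in PLK1.

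PIF1, a DNA helicase that acts at telomeres and at replication forks, had the largest fall of a gene called the same way in comparison with both CTL and BN. Its levels were 3.64, 3.5, 4.18, 3.81 and 4.3 in CTL and 2.45, 2.33, 2.50, 3.0 and 2.36 in DBN. The groups did not overlap, and PIF1 was 2.56-fold lower in DBN (difference −1.36 ± 0.17 SE, adjusted p = 0.0322). CCNF encodes cyclin F, the substrate receptor of an SCF ubiquitin ligase. Its levels were 1.00, 1.06, 1.13, 0.91 and 1.16 in CTL and −0.59, −0.55, −0.18, −0.21 and 0.60 in DBN. All DBN values were below all CTL values, with the fifth DBN array highest, and the difference was −1.24 ± 0.16 (adjusted p = 0.0322).

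**Figure D3:**
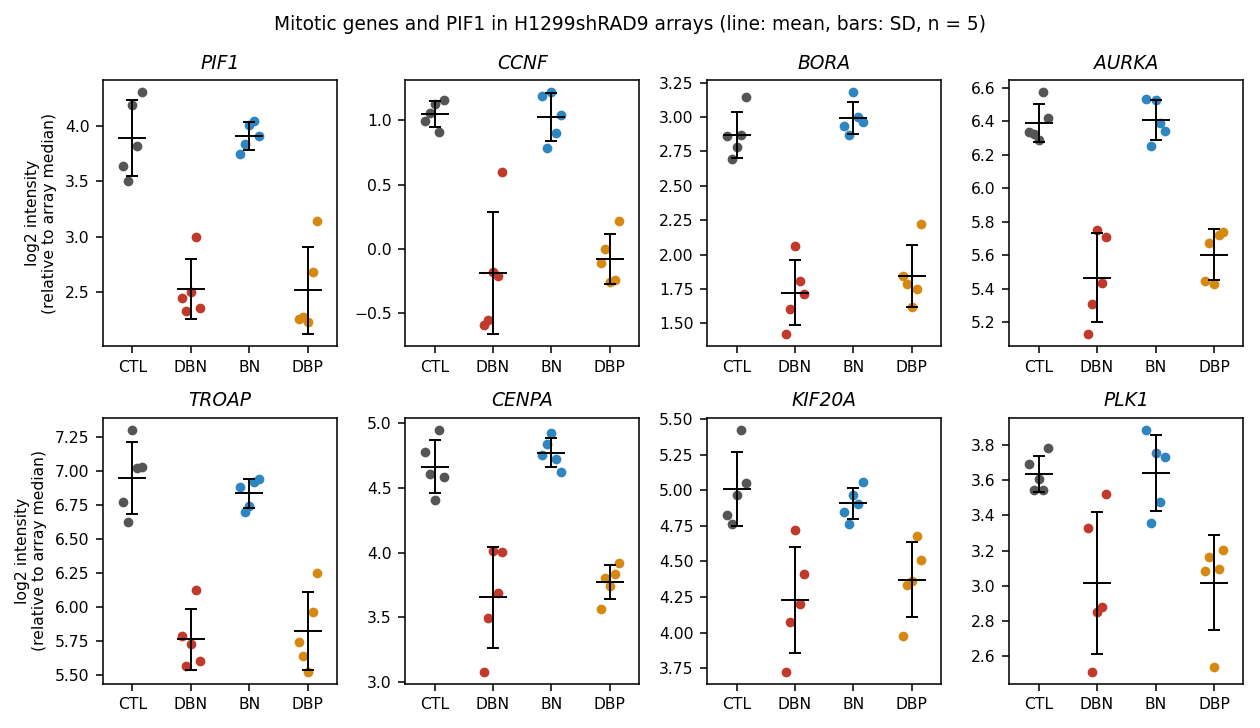
Each point is the level of 1 array (y axis, log2 intensity relative to the array median) in CTL, DBN, BN and DBP of H1299shRAD9 (x axis), with the mean and SD of 5 arrays. For PIF1, CCNF, BORA, AURKA, TROAP, CENPA, KIF20A and PLK1, the DBN points lie below the CTL points.

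Among 12 tested kinases of mitotic entry and their activators, 4 were lower and none higher, with a list median of −0.36. BORA activates Aurora A towards PLK1 at the onset of mitosis. Its levels were 2.86, 2.70, 2.78, 2.87 and 3.15 in CTL and 1.42, 1.61, 2.06, 1.81 and 1.71 in DBN. It was 2.22-fold lower in DBN, with no overlap (adjusted p = 0.0269). AURKA, the Aurora A kinase of centrosomes and spindle, had levels of 6.34, 6.33, 6.29, 6.57 and 6.42 in CTL and 5.13, 5.31, 5.75, 5.43 and 5.71 in DBN, a difference of −0.92 ± 0.13 (adjusted p = 0.0369). The processed AURKA pseudogene AURKAPS1 fell by 0.83, but near-identical copies such as these may share signal. PLK1, the Polo-like kinase that drives mitotic entry, fell less, by 0.62 ± 0.13 (adjusted p = 0.0744), and its second feature had −0.22. WEE1, the kinase that inhibits CDK1, fell by 0.51 ± 0.11 (adjusted p = 0.066). Among 9 tested mitotic cyclins, CDC25 phosphatases and anaphase regulators, CCNF and CDC25C, the phosphatase that activates CDK1, were called, CDC25C at −0.48 ± 0.10, and all 9 differences were negative (median −0.31).

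The kinesins had the lowest list median, −0.53 over 10 tested genes, of which 6 were called lower. KIF20A, a kinesin of the central spindle, had levels of 4.83, 4.76, 4.97, 5.42 and 5.05 in CTL and 3.73, 4.07, 4.72, 4.20 and 4.41 in DBN. The DBN values lay below the CTL values, by a narrow margin in the array of pair 3, and the difference was −0.78 ± 0.15 (adjusted p = 0.0643). CENPE, which carries chromosomes to the spindle equator, fell by 0.66 and KIFC1, a minus-end motor, by 0.62. KIF14, KIF18A and KIF23 fell by 0.53, 0.52 and 0.52.

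Of 17 tested centromere, kinetochore and chromosomal passenger genes, 5 were lower. CENPA, the histone H3 variant that marks centromeres, had levels of 4.78, 4.61, 4.41, 4.95 and 4.58 in CTL and 3.08, 3.49, 4.02, 3.69 and 4.01 in DBN, a 2.01-fold fall (adjusted p = 0.0589). HJURP, the chaperone that deposits CENPA, fell by 0.85, as did CDCA8, which encodes the passenger complex subunit borealin. SGOL2 (shugoshin 2) fell by 0.72 and SKA3 by 0.43.

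Spindle, microtubule and cytokinesis genes gave 8 lower of 16 tested, with a median of −0.46. TROAP, a spindle-associated protein, was at 6.77, 6.62, 7.30, 7.02 and 7.02 in CTL and 5.78, 5.57, 5.73, 6.12 and 5.60 in DBN. This is a 2.28-fold fall without overlap (adjusted p = 0.0263), though the other TROAP feature above background differed by only −0.13. FAM83D, which recruits casein kinase to the spindle, fell by 1.11 ± 0.12 and PSRC1, a microtubule-destabilising partner of kinesins, by 1.01 ± 0.09 (both adjusted p = 0.0263). CKAP2 fell by 0.72, and its second feature gave −0.67. Among 9 tested condensation genes, CDCA2, NCAPG and MKI67 fell by 0.80, 0.72 and 0.50, but 2 other MKI67 features gave 0.13 and 0.18.

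A further fall was seen at a feature that the array names only by its probe, A_33_P3404221, shown because it was the largest fall of all called features. It lies at chr1:68944584-68944643 on the minus strand (hg19), and its nearest named features on that strand belong to DEPDC1. Its probe reads
A_33_P3404221: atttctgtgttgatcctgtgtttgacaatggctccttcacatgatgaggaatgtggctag
Its levels were −0.11, −0.10, 0.20, 0.08 and 0.19 in CTL and −1.81, −1.29, −1.33, −0.67 and −1.82 in DBN. The difference was −1.44 ± 0.18 (adjusted p = 0.0322), with all 5 DBN values below all CTL values. A further unnamed feature, A_33_P3304097, was lower by 1.40 ± 0.34 (adjusted p = 0.091), but in 4 of 5 pairs, with levels of −0.44, 0.34, 1.67, 1.38 and 0.29 in CTL and −0.39, −0.45, −0.04, −0.51 and −2.36 in DBN. Large falls outside the lists were also seen for APOLD1, an early response gene of endothelial cells (−1.01 ± 0.10), and TXK, a tyrosine kinase (−0.98 ± 0.14).

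Other cell cycle genes moved less as groups. Of 10 tested G1 cyclins, CDKs, CDK inhibitors and RB family genes, the CDK4 and CDK6 inhibitors CDKN2C and CDKN2D were lower, CDKN2C by 0.83 ± 0.11 with no overlap between groups and CDKN2D by 0.42 ± 0.11. CDKN1C, the p57 inhibitor, was higher in 5 of 5 pairs (0.37 ± 0.12) but was not called (adjusted p = 0.169). S phase genes had a median of −0.02 over 22 tested, with CLSPN the only call (4.45% of all tested genes were called). CLSPN encodes claspin, the mediator between ATR and CHK1, and was higher by 0.67 ± 0.15. Its levels were 0.34, −0.23, 0.30, 0.34 and 0.49 in CTL and 0.89, 0.68, 0.86, 1.47 and 0.69 in DBN. Among 15 tested genes of the clamp, ATR and ATM signalling and strand break repair, CLSPN and PARP1 were the calls, with a list median of −0.03.

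The comparison of DBN with BN used no CTL array and set directly hit cells against bystander cells of the nonresponding dishes. Of 12171 features, 17 were called (0.14%), all of them lower in DBN. These were PIF1, BORA, FAM83D, TROAP, PSRC1, CKAP2, AURKAPS1, CDCA8, A_33_P3404221, FAM110A, CDCA2, AURKA, CENPA, LAG3, CCNF, HJURP and G2E3, the last a ubiquitin ligase whose transcript peaks before mitosis. Of the 73 tested mitotic genes 11 were called lower, against 0.17% of all tested genes, with a median of −0.39. By pair, this median was −0.48, −0.45, −0.26, −0.44 and −0.42, and both arrays lay on the same slide in pairs 1 to 4.

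BN levels of PIF1 were 3.74, 3.83, 4.01, 4.04 and 3.90, all above the 5 DBN values, and the difference was −1.38 ± 0.12 (adjusted p = 0.00793). BORA differed by −1.27 ± 0.11 (adjusted p = 0.00793) and FAM83D by −1.21 ± 0.11 (adjusted p = 0.0105). The index values of DBN and BN overlapped, and DBN was higher in 2 of 5 pairs (exact paired permutation p = 0.75). With the index as a covariate 12 features were called, all lower in DBN. With scan day as a block 7 were called, all lower in DBN. Only pair 5 was scanned on different days, so this equals the fit without replicate 5. Leaving out 1 replicate at a time left 3 to 7 calls.

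No feature was called between DBN and DBP, the directly hit cells of nonresponding and responding dishes, compared without pairing. In limma, 60 of 12171 features had an unadjusted p under 0.05 and the smallest adjusted p was 1, and the random-variance test also called 0. With slide as a fixed block the fit rests on DBN array 2 and DBP array 3, the only arrays of these groups on a shared slide. It does not compare the groups, and its calls are not read as differences between them. The mitotic genes had a median of −0.02 between these groups. PIF1 differed by 0.01 ± 0.21, CCNF by −0.11 ± 0.22 and BORA by −0.12 ± 0.17. VEGFA, the angiogenic growth factor, differed by 0.13 ± 0.33 and CHAC1 by −0.08 ± 0.64. Same-numbered DBN and DBP arrays also deviated together (correlations 0.258 to 0.55). With the replicate number as a block, 0 features were called and 198 had an unadjusted p under 0.05. The standard error then was 0.18 for PIF1, 0.16 for CCNF and for BORA, 0.26 for VEGFA and 0.39 for CHAC1, which leaves room for sizeable differences, in particular in CHAC1.

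The rising features were of another kind. They belonged to 341 genes, with a median genomic span of 59.0 kb in RefSeq, against 27.3 kb for all tested genes and 21.3 kb for the genes of falling features. Where a gene had several features above background on the array, the rise was mostly at 1 of them. Of 245 rising features of such genes, 195 were the most 5′ (79.6%), against 48.1% of all tested features of such genes. The 293 other features of the rising genes had a median difference of 0.01, and 46 of them were more than 1.2-fold higher. Falling features leaned the other way, with 44 of 53 the most 3′ (83.0%, against 42.0%), and the other 54 features of those genes had a median of −0.07. Rises below are those of the named gene's brightest tested feature, and other features of the gene are given beside it.

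**Figure D4:**
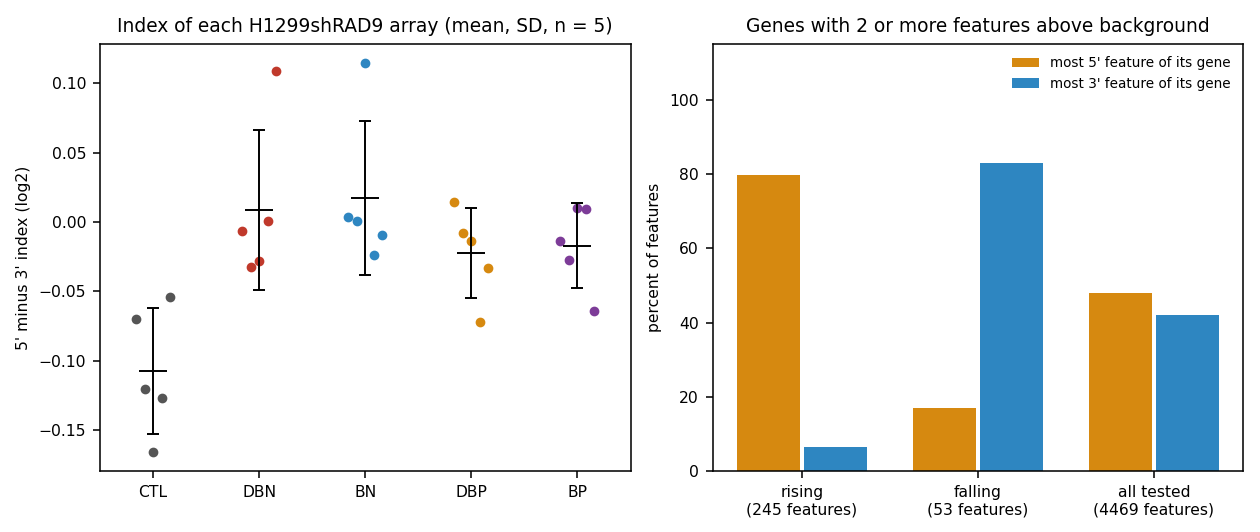
Left, the 5′ minus 3′ index (y axis, log2) of each H1299shRAD9 array by group, with the mean and SD of 5 arrays, where CTL lies lowest. Right, the percent of rising, falling and all tested features that were the most 5′ (orange) or most 3′ (blue) feature of a gene with several features; 79.6% of rising features were the most 5′.

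SMC1A and STAG2, subunits of the cohesin ring, were the only calls among 8 tested cohesin genes, against 4.45% of all tested genes. The brightest tested SMC1A feature was at 3.59, 3.36, 4.51, 3.69 and 4.34 in CTL and 3.75, 5.03, 5.28, 5.56 and 4.96 in DBN, and the groups overlapped (difference 1.02 ± 0.25, adjusted p = 0.0892). A second SMC1A feature rose by 1.24, and its remaining feature gave −0.11. The STAG2 feature was higher by 1.14 ± 0.19 with no overlap, while 2 others gave −0.04 and 0.36. PARP1, the first responder to DNA strand breaks, had levels of 3.84, 3.29, 4.13, 3.83 and 4.17 in CTL and 4.69, 4.37, 5.00, 5.12 and 4.54 in DBN at its brightest tested feature (difference 0.89 ± 0.14, adjusted p = 0.0471), while its other feature gave −0.05. IMMT, a mitochondrial inner membrane protein, rose by 1.19 at 1 feature, with −0.03 and 0.79 at the others. The other large rises were of ZNF480 (a zinc finger gene, 1.26), HOXA6 (1.22), ATP8B2 (a lipid flippase subunit, 1.2), TBC1D25 (1.2) and WDR31 (1.14), each with 1 feature above background, and TBC1D25 stood at −0.42 with the index as a covariate.

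In BN, whose index values overlapped those of DBN, PARP1 stood at 4.11, 4.76, 5.04, 5.03 and 4.67. None of the 375 rising features was called between DBN and BN (median difference 0.05), while the 194 falling features had a median of −0.26 there and 17 were called. Against CTL, BN had a median of 0.64 for the rising features (374 positive) and −0.30 for the falling ones (172 negative). In pair 1, which shared a slide, the rising features had a median of 0.59 and the falling ones −0.54. With the index as a covariate, a fit that called no feature, the rising features had a median of 0.71 and the falling ones −0.45. These features were chosen by the comparison of DBN with CTL, and the comparisons here share its DBN or CTL arrays.

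The integrated stress response raises ATF4, which turns on genes of amino acid supply and redox control. Of 35 tested genes of that response, 5 were called higher and none lower, and 32 differences were positive (median 0.25). Over all 8806 tested genes, 2.66% were called higher and 1.79% lower, and 3689 differences were positive. For BN, the bystander cells, the list median against CTL was 0.21, and DBN against BN gave 0.03. The median of DBN against CTL was 0.23, 0.02, 0.41, 0.08 and 0.73 in pairs 1 to 5. It became −0.23 with the index as a covariate. CHAC1, which degrades glutathione, had levels of 2.25, 2.16, 3.05, 2.90 and 2.74 in CTL and 4.00, 2.38, 4.65, 4.16 and 5.53 in DBN. The second DBN array overlapped the controls and the fifth was highest, and CHAC1 was 2.88-fold higher on average (difference 1.52 ± 0.31, adjusted p = 0.0656). Its other feature differed by 1.32. The other calls were GDF15 (0.91), LARS (0.78), ASNS (0.54) and TRIB3 (0.48). GDF15, a stress-induced cytokine, turned to −0.46 with the index as a covariate.

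**Figure D5:**
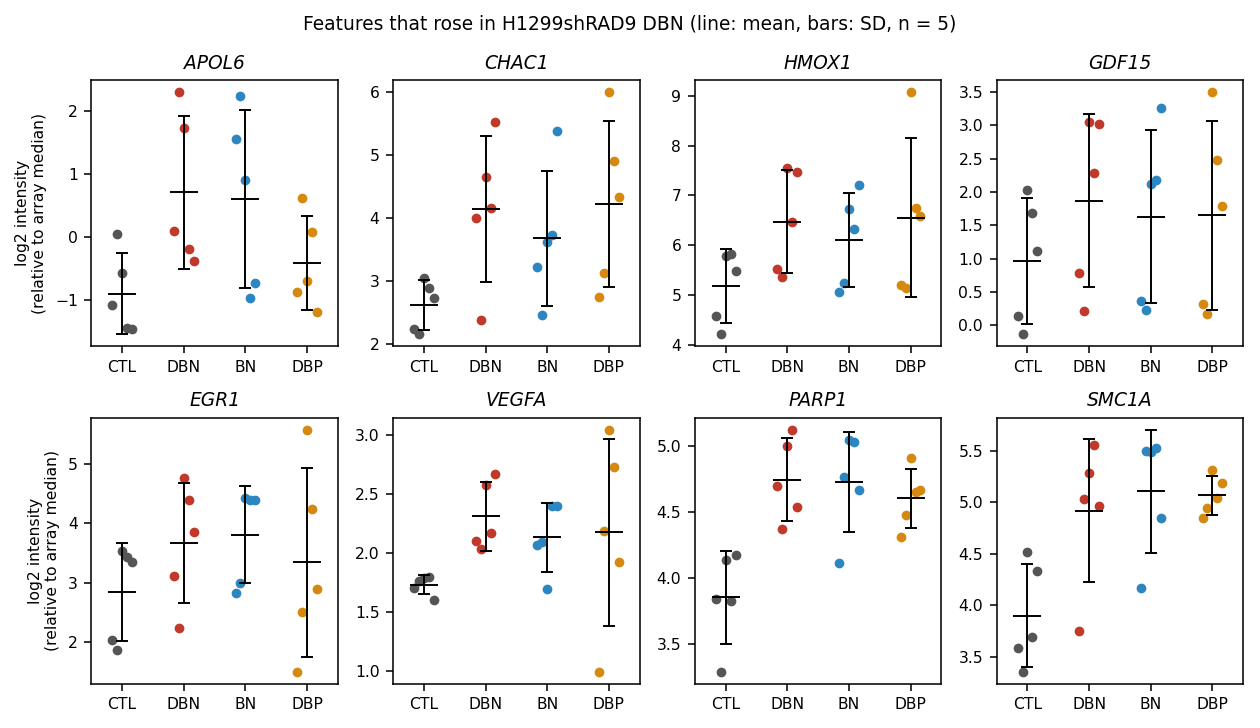
Each point is the level of 1 array (y axis, log2 intensity relative to the array median) in CTL, DBN, BN and DBP of H1299shRAD9 (x axis), with the mean and SD of 5 arrays. For CHAC1, HMOX1, GDF15 and EGR1 the values within each group spread widely, and BN overlaps DBN in all 8 panels.

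The CHAC1 promoter is shown because its window holds the letters of an ATF4 composite element, TGATGNAA, which 2 of 4 called genes of the response with a window held, against 2.18% of tested genes and 3.67% of all windows. The 250 bases before its start (chr15:40953221-40953470, plus strand, GRCh38.p14) read, with the match, on the reverse strand, in capitals:
CHAC1: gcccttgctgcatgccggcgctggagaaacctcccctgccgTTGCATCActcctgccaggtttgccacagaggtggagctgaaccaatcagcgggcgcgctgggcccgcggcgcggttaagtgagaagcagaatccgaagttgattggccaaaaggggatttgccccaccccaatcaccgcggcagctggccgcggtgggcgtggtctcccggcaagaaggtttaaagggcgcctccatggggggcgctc

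Of 22 tested NRF2 and oxidative stress genes, 3 were higher (median 0.11). Of all tested genes, 2.66% were called higher and 1.79% lower. The list median was 0.18 for BN against CTL and 0.04 for DBN against BN. HMOX1, the inducible haem oxygenase, had levels of 4.57, 4.21, 5.78, 5.83 and 5.49 in CTL and 5.52, 5.37, 7.55, 6.47 and 7.47 in DBN. The groups overlapped, but DBN was above its own pair in all 5, by 1.3 ± 0.20 (adjusted p = 0.0441). OSGIN1 rose by 0.58 and SRXN1, which reduces peroxiredoxins, by 0.42, and SRXN1 was at −0.02 with the index as a covariate. Of 33 tested immediate early genes, EGR1 (0.82), NR4A1 (0.64) and MAFF (0.52) were higher and BTG2 was lower (−0.49). EGR1 had levels of 2.03, 1.87, 3.52, 3.43 and 3.35 in CTL and 3.12, 2.24, 4.75, 4.38 and 3.84 in DBN, higher in every pair within a wide spread.

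Among 28 tested interferon-stimulated genes, APOL6, EIF2AK2 and PARP14 were higher, with a list median of 0.03. Calls over all tested genes were 2.66% higher and 1.79% lower. APOL6 had the largest rise of the genes called, 3.05-fold, with levels of −1.07, 0.06, −0.57, −1.44 and −1.45 in CTL and 0.09, 2.29, 1.73, −0.18 and −0.38 in DBN (difference 1.61 ± 0.21, adjusted p = 0.0322). The last 2 DBN arrays lay within the range of CTL. EIF2AK2, the RNA-activated kinase PKR, rose by 0.87 ± 0.14 with no overlap, and its other feature gave 0.32. Of 37 tested replication-dependent histones, 4 were higher (HIST1H4G, HIST1H4J, HIST1H4F and HIST1H1E, from 0.59 to 0.94) and the pseudogene HIST1H2APS1 was lower (−0.51), with a median of 0.20. Histone genes are near-identical, so the features may share signal, and HIST1H4G was at −0.17 with the index as a covariate. With scan day as a block, which rests on pair 1 alone, it was at −0.05.

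Of 23 tested HIF1 targets only VEGFA was called, against 4.45% of all tested genes. Its levels were 1.70, 1.76, 1.79, 1.79 and 1.6 in CTL and 2.10, 2.04, 2.58, 2.17 and 2.67 in DBN, with no overlap, a 1.49-fold rise (difference 0.58 ± 0.14, adjusted p = 0.0887). Its other feature rose by 0.90, and the brighter feature was at −0.21 with the index as a covariate. The list median was 0.06.

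In the TGF-beta, BMP, ID and SOX list, 5 of 28 tested genes were lower and none was higher (median −0.20). Calls over all tested genes were 1.79% lower and 2.66% higher. SOX4, a transcription factor of progenitor cells, had levels of −0.10, −0.26, −2.22, −1.84 and −0.10 in CTL and −1.38, −0.31, −3.89, −3.16 and −2.82 in DBN. It was lower in every pair but overlapped (difference −1.41 ± 0.32, adjusted p = 0.0778), was above background on 4 CTL and 3 DBN arrays, and stood at 0.61 with the index as a covariate. ID3, an inhibitor of helix-loop-helix factors, was at 3.75, 4.34, 3.70, 3.66 and 4.07 in CTL and 3.35, 3.22, 3.40, 3.23 and 3.59 in DBN, without overlap. It fell by 0.55 ± 0.14. SOX2, PMEPA1 (a TGF-beta target) and SMAD3 fell by 0.55, 0.55 and 0.49.

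No heat shock or chaperone gene was called of 26 tested (median −0.04), with HSPA6 at 0.33 ± 0.20 and DNAJB5 at −0.21 ± 0.11. No secreted mediator or gap junction gene was called of 6 tested, with CXCL1 at −0.23 and CXCL2 at 0.24. Single calls were MMP14, a membrane metalloproteinase, at 0.71 among 10 matrix proteolysis genes, BMF at 0.56 among 15 BCL2 family genes, and the readthrough gene RPL36A-HNRNPH2 at 0.51 among 33 features with ribosomal protein names. Over all tested genes 4.45% were called. Of the other genes on which the study focused, FBXW12 was at −0.27 ± 0.12 (adjusted p = 0.288). SP1, which did not vary enough over the series to be tested, was at −0.40 without that filter (limma adjusted p = 0.119), SESN1 likewise at −0.22 (adjusted p = 0.704), and VNN2 was above background on no CTL array.

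In parental H1299 cells, 2 features were called between DBN and CTL (0.0164%), and the mitotic genes had a median of −0.66. PIF1 differed by −2.02 there, CCNF by −1.72, BORA by −1.32 and AURKA by −1.21. No feature was called in the interaction of cell line and DBN in limma (smallest adjusted p 0.257, with 1065 of 12171 features at an unadjusted p under 0.05), and the random-variance test also called 0. The 5′ minus 3′ index was −0.11, 0.01, −0.01, 0.03 and 0.10 in parental CTL. In parental DBN it was 0.03, −0.28, 0.15, 0.05 and 0.06. The part of the index in the parental differences was not tested. The 375 features that rose in H1299shRAD9 had a median of −0.25 in parental H1299, and the 194 that fell had −0.38. Both sets were chosen on arrays that also enter the interaction, so their interaction p-values are not given. Without replicate 1 the interaction had 106 calls, 93 of them higher in H1299shRAD9.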

How the data were processed

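One-colour (Cy3) Agilent 4x44K v2 arrays were read from the deposited Feature Extraction files. Per the file headers, the processed intensity is background-subtracted. Here, log2 was taken of the processed intensity, the array median was subtracted, spots of a probe were averaged, and flagged spots were left out. Of 34127 probes, 20078 were well above background and unflagged on over 75% of the 50 arrays, and 12171 of these differed at least 1.3-fold from their median on 20% or more of arrays. The authors' own deposited log2 values (9502 features) were an alternative. Groups were compared with limma 3.58.1 in R 4.3.3, the replicate number being a block except between DBN and DBP. The methods name matched samples, and same-numbered DBN and CTL arrays deviated together (correlations 0.275 to 0.739). A gene was represented by its brightest tested feature. Genes named were the 10 largest rises and falls called in all 5 pairs, up to 4 called members (or 2 of lowest p) per list, markers, genes the study names, and the calls between DBN and BN. TRIB3, SMAD3, KIF18A, KIF23, SKA3 and the histone pseudogene were named after their values were seen. Members and lists were chosen with earlier results of these data known. Gene names were matched through accessions for 25962 probes, current symbols for 2078 and earlier symbols for 464, leaving 5623 unnamed. Scripts were tested on simulated data. The number of arrays limits the precision, since each p-value sets a difference against the spread between these samples only.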

Additional observations from a re-analysis of the deposited data

Results flagged for a closer look

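Of 170 groups of 5 values examined, 11 had a sample standing apart from the others by more than Dixon's critical value, and chance flags about 1 in 20. The value given is the gap to the nearest sample over the range of the group. In DBN these were PIF1 in replicate 4 (0.747, level 3.0 against 2.50 for the nearest), CXCL2 in replicate 2 (0.75), CLSPN in replicate 4 (0.726), RAD9A in replicate 1 (0.757, level 3.75 against 3.23) and the unnamed feature A_33_P3304097 in replicate 5 (0.798). In CTL they were PMEPA1 in replicate 1 (0.749), CLSPN in replicate 2 (0.736) and VNN2 in replicate 5 (0.789). Among the array measures they were the 5′ minus 3′ index in DBN replicate 5 (0.766, at 0.109), and the percent of probes well above background in CTL replicate 5 (0.74, at 65.3%) and DBN replicate 1 (0.746, at 58.5%). Without replicate 5 the comparison of DBN with CTL had 672 calls.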

How the results depend on the processing

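Calls between DBN and CTL numbered 569, with 862 when all groups shared 1 fit, 369 on the authors' values and 66 with no replicate block. The positive-and-significant mark, which tested more features, gave 0 (smallest adjusted p 0.128, 2255 features at an unadjusted p under 0.05). Scan day as a block gave 2 and the index as a covariate 0 (880 at p under 0.05), both chosen after seeing the data. Leaving out 1 replicate gave 0 to 672. Slide as a fixed block rests on DBN array 1, so its calls between DBN and CTL are not given. Scan day as a block rests on pair 1 alone. The other 8 settings stayed within 1.5 times. The 28 mitotic calls became 11 with no replicate block, 0 with the positive-and-significant mark or the index, and 0 to 25 without 1 replicate. Mitotic calls with slide or scan day as a block are not given, for the reason above. The median of the mitotic genes tested in the main fit stayed between −0.46 and −0.35, also in the settings that rest on DBN array 1. Settings that alter only the filter or the test could not move this median, which was −0.39 there. The 17 calls between DBN and BN became 53 in the fit of all groups, 11 by the criterion of 4 in 5 arrays and 3 with the positive-and-significant mark. They became 8 with slide, 9 with no replicate block and 3 to 7 without 1 replicate. Scan day as a block gave 7 and is the same fit as leaving out replicate 5. Between DBN and DBP the replicate block gave 0 calls, the authors' values 1 and slide as a block 359. That slide fit rests on DBN array 2 and DBP array 3, so its count does not compare the groups. The interaction gave 1 with all groups in the fit and 0 to 106 without 1 replicate. With slide as a block its H1299shRAD9 part rests on DBN array 1, so its calls are not given. Except where said, the cause was not tested.

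Named genes that changed sign did so with the index as a covariate: SOX4 (0.61), A_33_P3304097 (1.6), CD14 (0.23), DNAJB5 (0.21), HSPA6 (−0.56), SRXN1 (−0.024), VEGFA (−0.21), GDF15 (−0.46), HIST1H4G (−0.17) and TBC1D25 (−0.42). With scan day as a block, which rests on pair 1 alone, A_33_P3304097 was at 0.051 and HIST1H4G at −0.053.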
